A study of Mus musculus with 6 samples.

Results

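The nuclear genes for mitochondrial ribosomal proteins were examined in natural killer T (NKT) cells with and without functional DOCK8. Members were chosen by symbol, as genes whose name is Mrpl (large subunit) or Mrps (small subunit) followed by a digit and which had a probe annotated with that symbol alone. Of 76 such genes with a probe, 72 were detected above background (detection p under 0.05) on at least 3 of the 6 arrays, 45 of the large and 27 of the small subunit, among 9060 genes tested in all. RNA of NKT cells from the thymus, of the mature stage that carries both CD44 and NK1.1, was hybridised to Illumina mouse arrays. The DOCK8-deficient group came from the Captain Morgan strain, which the sample titles call knockout, and the other group from wild type mice, both with C57BL/6 as the strain. Each group held 3 biological replicates with 1 array each. Whether a replicate came from a single animal or from several was not recorded in the labels, nor were age or treatment, so the p-values cover no more than the spread among these 6 samples.

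NKT cells are T cells that recognise lipids on CD1d, and DOCK8 is an exchange factor that activates CDC42 in lymphocytes. Mitochondrial ribosomes sit in the mitochondrial matrix and translate only the few messages encoded by mitochondrial DNA, all of them for core subunits of the respiratory chain and ATP synthase. Their RNA is encoded in mitochondrial DNA, whereas every one of their proteins is made from a nuclear gene and imported. The small subunit binds messenger RNA and reads codons, and the large subunit forms peptide bonds and passes the chain to the inner membrane. Low-numbered proteins share their name and ancestry with a bacterial ribosomal protein, and most of the high-numbered ones were added in mitochondria. The symbols sort most proteins correctly, but structures of the mammalian particle place the products of Mrps18a and Mrps30 in the large subunit. They are counted here by symbol.

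All 7 markers of NKT identity were detected on all 6 arrays, and their summed linear signal ran from 46407 to 47922 in the DOCK8-deficient group and from 46405 to 50779 in wild type. Dock8 itself read 9.47 ± 0.05 on the log2 scale in the deficient group and 9.48 ± 0.20 in wild type (SD, n = 3 each), so its signal did not separate the groups, which rest on the labels. Between 36.4% and 40.7% of probes were detected on an array, and precision throughout was limited by there being 3 arrays a group. Genes used as markers of other cells were summed likewise. Some of them, such as Cd4 and Fcer1g, can be expressed by NKT cells too, and a linear sum weights its brightest genes most. The summed signal of 11 double-positive thymocyte markers was 2044 to 2389 in the deficient group and 2409 to 2976 in wild type, with 5 of the 11 detected on all arrays and Rag2, Cd8a and Ccr9 on none. That of 12 myeloid and dendritic cell markers was 9248 to 10689 against 8122 to 9002, with 7 of the 12 detected on all arrays and Itgam, Flt3 and Cd14 on none. The sums did not overlap between the groups in either list. All 7 thymocyte genes tested were lower in the deficient group, with a median difference of -0.49 on the log2 scale. Of these 1 had an adjusted p under 0.05 in limma (14.3%, against 0.364% of all genes). Of the 8 myeloid and dendritic cell genes tested 7 were higher, with a median of 0.45, and 0 had an adjusted p under 0.05. The signal of 4 B cell markers overlapped, at 137 to 324 against 142 to 277, with 0 of the 4 detected on all arrays and Ms4a1 and Pax5 on none. Whether such cells had a part in the values below was not tested. In bulk RNA, fewer cells of a type and less RNA per cell cannot be told apart.

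The comparison asked whether the transcripts for the mitochondrial translation machine differ between DOCK8-deficient and wild type NKT cells. None of the 72 members passed limma's test over all genes, with 0 at an adjusted p under 0.05 against 33 of the 9060 genes tested (0.364%). At an unadjusted p under 0.05 there were 3 members, or 4.17% against 11.3% of all genes. All 3 were of the small subunit and higher in the deficient cells, a direction in which 5.68% of all genes reached that p. Differences were small. They ran from -0.28 to 0.49 on the log2 scale, and for every member the 95% interval lay within a 2-fold change in either direction, as did that of 91.7% of all genes. For 61 of 72 it also lay within 1.5-fold, which is 84.7% of members, against 57.6% of all genes and 65.3% of genes that, like all 72 members, were detected on all 6 arrays.

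**Figure D1:**
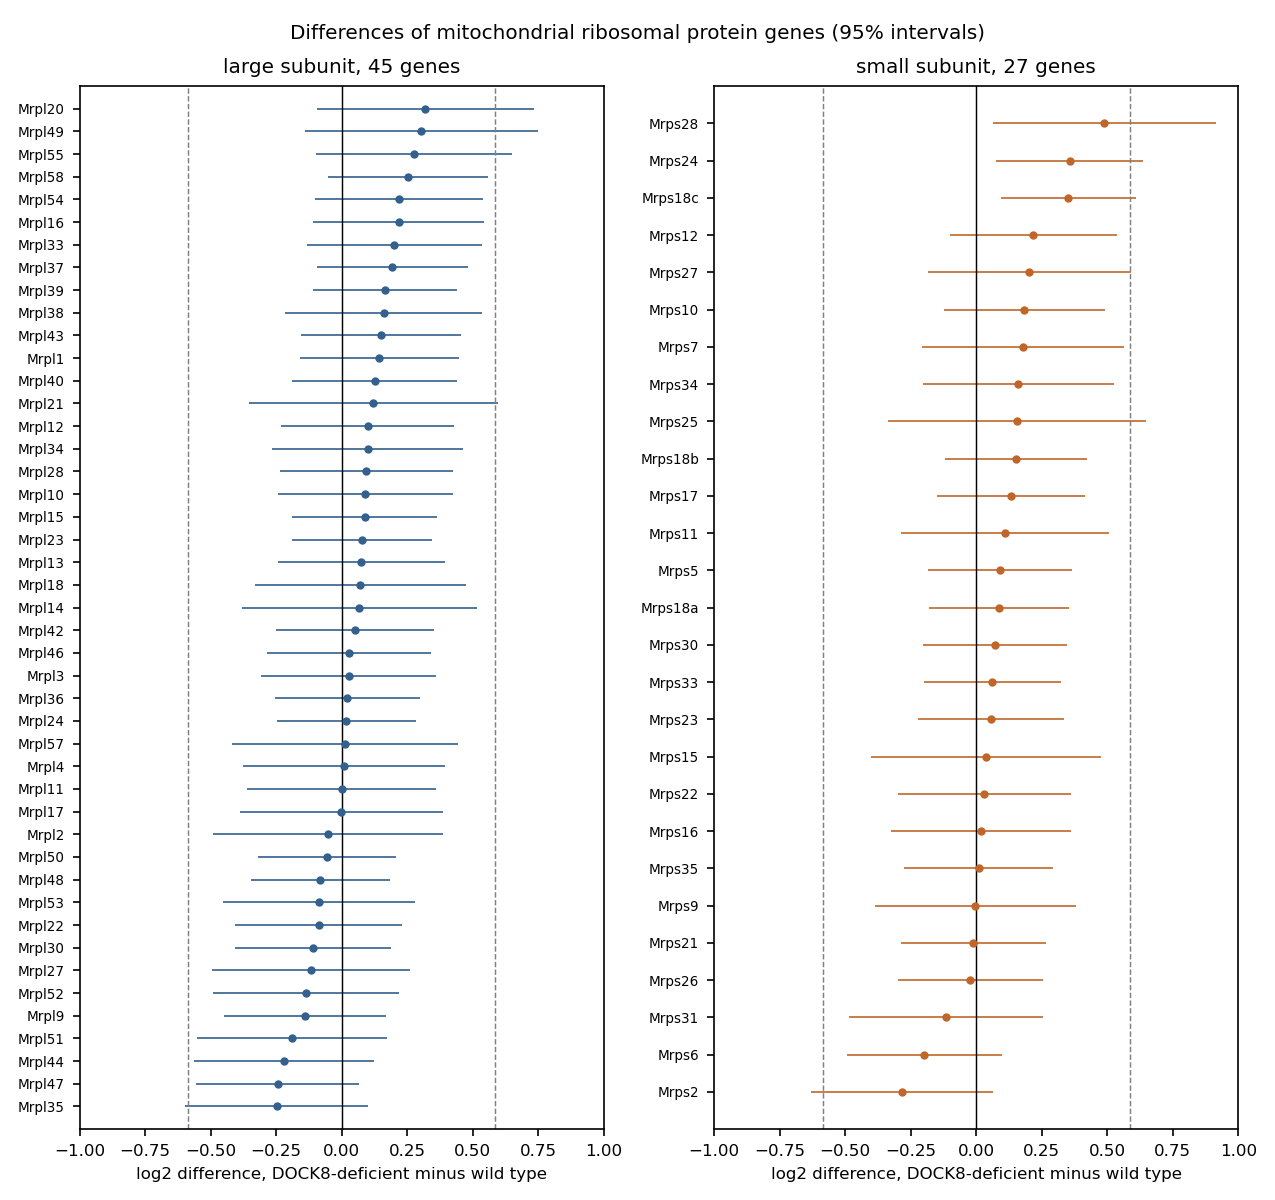
Log2 difference (DOCK8-deficient minus wild type, 3 arrays each) of each of the 45 large and 27 small subunit genes, with 95% intervals from limma as bars and a 1.5-fold change in either direction as dashed lines. No gene passed over all genes; the intervals of Mrps28, Mrps24 and Mrps18c exclude 0, and 61 of the 72 lie inside the dashed lines.

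Most members read a little higher in the deficient cells. Of the large subunit genes 30 of 45 were higher, with a median difference of 0.067, and of the small subunit genes 21 of 27, with a median of 0.087. Over all genes tested 4436 of 9060 were higher (49%), with a median of -0.0049. Without any one array the large subunit's median lay between 0.020 and 0.097, the former without wild type replicate 3 and the latter without wild type replicate 2, and the small subunit's between 0.078 and 0.10. When arrays were scaled to a common median instead of common quantiles, the median of all genes moved to -0.076, 22 of 45 large and 16 of 27 small subunit genes were higher, and the medians became -0.0024 and 0.021. The sign of the large subunit's median thus flipped as the median of all genes moved down, and both subunits' medians still lay above that of all genes.

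In the small subunit, 3 genes stood at the upper end. Mrps18c encodes 1 of 3 mammalian relatives of bacterial S18. It read 11.21, 11.15 and 11.22 on DOCK8-deficient arrays 1 to 3 and 10.83, 10.86 and 10.84 on wild type arrays 1 to 3, all on the log2 scale. The groups were separate and each was tight, with the smallest within-group SD of the 72 members (0.027). The difference was 0.35 ± 0.11 (SE), or 1.28-fold (95% interval 1.07 to 1.52), with a limma adjusted p of 0.28. Mrps24, a relative of bacterial S3 at the messenger RNA entry, read 12.81, 12.74 and 12.97 in the deficient group and 12.45, 12.52 and 12.47 in wild type. Every deficient array was above every wild type array, and the difference was 0.36 ± 0.12 or 1.28-fold (1.06 to 1.56, adjusted p = 0.32).

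Mrps28, a gene mutated in a human mitochondrial disease, read 8.84, 9.25 and 9.10 on the deficient arrays and 8.65, 8.83 and 8.26 on the wild type arrays. Its groups touched without overlapping, since deficient array 1 stood just above wild type array 2. The difference was 0.49 ± 0.18, which is 1.40-fold (1.05 to 1.89, adjusted p = 0.38). Over 14 other settings and left-out arrays each of the 3 genes stayed higher and none passed. The smallest adjusted p was 0.065 for Mrps18c without background correction, and 0.079 for Mrps24 and 0.18 for Mrps28 with a trended robust prior. With median scaling all 3 had an adjusted p near 1 and their groups overlapped.

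**Figure D2:**
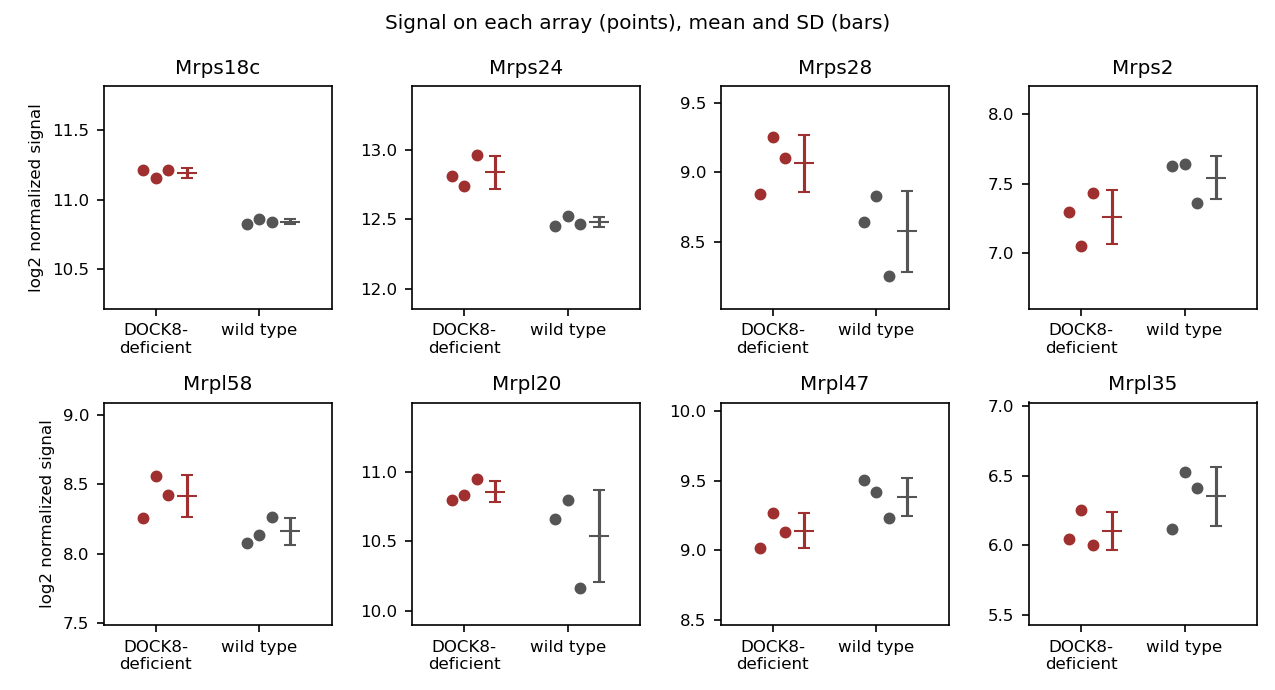
Normalized log2 signal on each array (points) of 8 members that lay at the upper or lower end of their subunit, with the mean and SD of each group (n = 3) as bars; every panel spans the same range of log2 units. Mrps18c, Mrps24 and Mrps28 do not overlap between the groups, and the other 5 do.

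Promoter sequence was examined for features that the members share. RefSeq windows (GRCm38.p6, 250 bases before to 50 after the start of transcription) were matched by symbol for 64 of the 72 members, 70 windows in all. Both strands were searched for 5 motifs with no mismatch. CCGGAAG, the core bound by ETS factors such as GABP, stood in 37.1% of member windows, against 19.0% of windows of the genes tested and 8.9% of all windows in the table. AAGATGGCG, the core bound by YY1, stood in 11.4%, 3.3% and 1.4%. The palindrome bound by NRF1, GCGCA followed by any base and GCGC, stood in 15.7%, 10.4% and 4.6%. GGGCGG, the GC box, was in 51.4% of member windows against 61.9% of those of genes tested and 35.7% of all windows. TATAAA was in 7.1% against 7.5% of windows of the genes tested and 13.6% of all windows. Hits of different motifs overlapped in 2 of the 70 windows, CCGGAAG with the GC box. There were 25 small and 45 large subunit windows, so the shares by subunit rest on few windows. CCGGAAG was in 11 small (44.0%) and 15 large subunit windows (33.3%), and AAGATGGCG in 4 of each (16% and 8.9%). The NRF1 palindrome was in 3 small (12%) and 8 large subunit windows (17.8%), and the GC box in 16 (64%) and 20 (44.4%).

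The windows of Mrps18c and Mrps24 are shown because these genes had the smallest p in the test among members with a window. They were not picked by motif, and each window holds 1 of the ETS and YY1 cores. In 6 members the window holds 2 of the NRF1, ETS and YY1 motifs, and none holds more. Of these 6, Mrps27 and Mrps18a are shown because they had the smallest p in the test. Both hold the ETS core before and AAGATGGCG after the start. The ETS core reads CCGGAAG in Mrps18a and lies on the opposite strand, as its reverse complement, in Mrps27. Capitals mark CCGGAAG or its reverse complement and AAGATGGCG, and each sequence runs 5′ to 3′ on the strand of its gene.
Mrps18c, chr5:100798509-100798808, plus strand: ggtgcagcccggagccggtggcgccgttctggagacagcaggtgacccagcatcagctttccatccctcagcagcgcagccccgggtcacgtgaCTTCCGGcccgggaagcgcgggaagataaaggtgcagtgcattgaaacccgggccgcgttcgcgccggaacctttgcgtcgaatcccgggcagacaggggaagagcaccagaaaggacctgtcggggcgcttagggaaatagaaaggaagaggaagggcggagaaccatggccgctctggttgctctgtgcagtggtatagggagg
Mrps24, chr11:5707652-5707951, minus strand: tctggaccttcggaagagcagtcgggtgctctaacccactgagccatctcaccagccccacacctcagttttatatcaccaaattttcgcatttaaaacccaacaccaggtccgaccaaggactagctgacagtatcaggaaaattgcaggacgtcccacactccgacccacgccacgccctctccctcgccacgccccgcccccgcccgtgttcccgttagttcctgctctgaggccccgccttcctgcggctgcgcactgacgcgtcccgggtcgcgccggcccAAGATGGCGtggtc
Mrps27, chr13:99344536-99344835, plus strand: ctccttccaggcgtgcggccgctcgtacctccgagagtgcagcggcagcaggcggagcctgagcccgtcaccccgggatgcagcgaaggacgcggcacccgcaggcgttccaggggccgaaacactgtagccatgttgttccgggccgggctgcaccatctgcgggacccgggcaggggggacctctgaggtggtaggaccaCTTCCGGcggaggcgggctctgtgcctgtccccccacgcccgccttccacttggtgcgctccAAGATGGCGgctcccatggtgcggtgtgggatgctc
Mrps18a, chr17:46110754-46111053, plus strand: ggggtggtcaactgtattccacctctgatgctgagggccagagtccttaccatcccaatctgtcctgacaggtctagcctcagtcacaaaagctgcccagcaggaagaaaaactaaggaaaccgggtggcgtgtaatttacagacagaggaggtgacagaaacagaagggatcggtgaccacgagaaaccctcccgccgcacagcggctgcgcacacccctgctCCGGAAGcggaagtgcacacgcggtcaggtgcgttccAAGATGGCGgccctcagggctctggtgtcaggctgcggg
In Mrps18a CCGGAAG begins 26 bases before the start and AAGATGGCG at base 12 after it. In Mrps27 the same cores begin 48 bases before and at base 15. The signal of Mrps27, named for its promoter, differed by 0.20 ± 0.17 (adjusted p = 0.71) and that of Mrps18a by 0.09 ± 0.12 (0.84).

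Other small subunit genes higher in the deficient cells differed by less. Mrps12, whose product shapes the decoding centre and is related to the bacterial streptomycin target S12, read 11.20, 11.19 and 11.19 in the deficient group and 10.87, 11.21 and 10.84 in wild type. Wild type array 2 alone was as high as the deficient arrays, and the difference was 0.22 ± 0.14 (adjusted p = 0.61). Mrps10 differed by 0.18 ± 0.13. At the lower end was Mrps2, which belongs to the same human disease group as Mrps28, with 7.30, 7.06 and 7.43 against 7.63, 7.64 and 7.37 in wild type. Its groups overlapped, at -0.28 ± 0.15 (adjusted p = 0.54). Mrps6 read 9.44, 9.48 and 9.19 in the deficient group, below all 3 wild type arrays, which lay between 9.56 and 9.57, a difference of -0.20 ± 0.13. Mrps31, Mrps26 and Mrps21 differed by -0.12, -0.022 and -0.011.

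In the large subunit the 5 upper genes of smallest p were Mrpl58, Mrpl20, Mrpl55, Mrpl54 and Mrpl49. Mrpl58 encodes a peptidyl-tRNA hydrolase that rescues stalled ribosomes and is built into the large subunit. It read 8.26, 8.56 and 8.42 in the deficient group and 8.08, 8.14 and 8.26 in wild type, and its groups overlapped (0.25 ± 0.13, adjusted p = 0.54). Mrpl20, a relative of the early-assembling bacterial L20, read 10.79, 10.83 and 10.94 against 10.66, 10.80 and 10.16. Wild type array 3 was low, and without it the difference was 0.13 in place of 0.32 ± 0.18. Mrpl55 differed by 0.27 ± 0.16, Mrpl54 by 0.22 ± 0.14 and Mrpl49 by 0.30 ± 0.19. None of the 5 passed, with adjusted p from 0.54 to 0.61.

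The lower end of the large subunit held Mrpl47, Mrpl35, Mrpl44, Mrpl51 and Mrpl9. Mrpl47, a relative of bacterial L29 at the peptide exit, read 9.02, 9.27 and 9.13 in the deficient group and 9.50, 9.42 and 9.23 in wild type. Deficient array 2 overlapped wild type array 3, and the difference was -0.24 ± 0.13 (adjusted p = 0.56). Mrpl35 read 6.05, 6.26 and 6.01 against 6.12, 6.52 and 6.41, a difference of -0.25 ± 0.15. Mrpl44, which has a fold like that of ribonuclease III and is mutated in a human cardiomyopathy, differed by -0.22 ± 0.15. Mrpl51 differed by -0.19 ± 0.16 and Mrpl9 by -0.14 ± 0.13.

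Groups that did not overlap were found for 9 members (12.5%), against 17.1% of all genes tested. Of these 7 were higher in the deficient cells (9.72%, against 8.61% of all genes) and 2 lower (2.78%, against 8.5%). Beside those given above they were Mrps18b, Mrpl37, Mrpl16 and Mrpl39 among the higher and Mrpl48 among the lower, the last 4 named after their values were seen. Their differences were 0.15, 0.19, 0.22, 0.17 and -0.082. With median scaling none of the 9 was free of overlap, and Mrpl47 was the only member that was.

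Members were also grouped by role, and no role group held a gene that passed over all genes. The stalk that recruits translation factors is built by the products of Mrpl10, Mrpl11 and Mrpl12, which differed by 0.090, -0.00035 and 0.098. Around the peptide exit tunnel, Mrpl22, Mrpl23, Mrpl24 and Mrpl44 differed by -0.088, 0.077, 0.018 and -0.22. The 3 relatives of bacterial S18 are alternative or separately placed proteins, and all 3 were higher, Mrps18c at 0.35, Mrps18b at 0.15 and Mrps18a at 0.09. Of 12 measured genes known from human mitochondrial disease, 10 were higher and 2 lower, with a median of 0.044, against 0.071 over all members. The share higher was 83.3%, against 70.8% of members and 49% of all genes. It depended on the scaling. With median scaling Mrpl3, Mrpl24, Mrps16 and Mrps22 of this group turned lower, and 38 of the 72 members were higher. Only Mrps28 had an unadjusted p under 0.05, or 8.33% of the group against 11.3% of all genes. In this group Mrps7 differed by 0.18, Mrps34 by 0.16, Mrps25 by 0.16, Mrps23 by 0.057, Mrps22 by 0.031, Mrpl3 by 0.026 and Mrps16 by 0.020. Mrps25 varied most within groups (SD 0.31), because it read 6.74 on wild type array 3 and between 7.34 and 7.51 on the other 5 arrays.

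Genes named for a bacterial counterpart and higher-numbered genes were set side by side, the former being numbers up to 36 in the large and up to 21 in the small subunit. The split follows the number, and some higher-numbered products, such as those of Mrps24 and Mrpl47, also have bacterial relatives. In the large subunit 18 of 26 lower-numbered genes were higher in the deficient cells, with a median of 0.069, and 12 of 19 higher-numbered genes, with a median of 0.051. In the small subunit the counts were 11 of 15 with a median of 0.091 and 10 of 12 with a median of 0.067.

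The arrays differed in how they placed the whole family. Each gene was set to its own mean over the 6 arrays, and the median deviation was taken over a subunit. For the large subunit it was -0.027, 0.042 and 0.062 on deficient arrays 1 to 3 and -0.036, 0.057 and -0.092 on wild type arrays 1 to 3. Wild type array 2 lay among the deficient arrays, so the groups overlapped. For the small subunit it was 0.0083, 0.070 and 0.107 on the deficient arrays and -0.045, -0.032 and -0.085 on the wild type arrays. There the groups did not overlap, and the within-group SD of these medians was 0.040. Over all genes it was -0.0082, -0.0037 and 0.019 on the deficient arrays and 0.011, 0.017 and -0.013 on the wild type arrays. These array medians were not taken with median scaling, under which the small subunit's median difference was 0.021. Of the 72 members, 24 had their lowest signal on wild type array 3 (33.3%, against 18.8% of all genes) and 22 their highest on deficient array 3 (30.6%, against 21.1%). The median within-group SD of a member was 0.15, against 0.18 for genes detected on all 6 arrays.

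**Figure D3:**
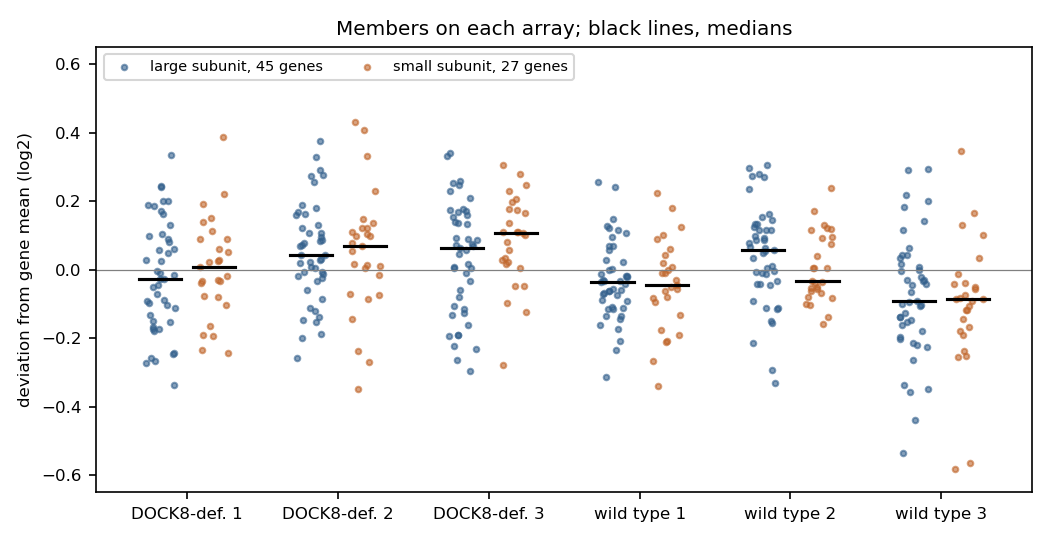
Deviation of each member from its own mean over the 6 arrays, on the log2 scale, for the 45 large and 27 small subunit genes on each array, with black lines at the medians. The small subunit's medians are 0.0083, 0.070 and 0.107 on the deficient and -0.045, -0.032 and -0.085 on the wild type arrays. Those of the large subunit overlap between the groups. With median scaling in place of quantiles the median difference becomes -0.0024 (large) and 0.021 (small) as that of all genes moves to -0.076.

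The members' values rest on the brightest probe of each gene. Another 38 probes of 26 members were detected on at least 3 arrays, and 26 of them differed in the same direction as the probe used and 12 in the opposite one. How often further probes of other genes differ in the same direction was not counted. None of the 38 passed over 14559 detected named probes, with 0 at an adjusted p under 0.05 in limma. At an unadjusted p under 0.05 there were 2 of the 38, against 11.3% of all genes by their brightest probe. These 2 were further probes of Mrpl13 at 0.35 and of Mrpl49 at 0.34. Mrpl49 was read inconsistently, since its remaining probes differed by -0.10 and -0.20. They were dim, at 5.79 to 6.71 on the log2 scale, and so was the Mrpl49 probe at 0.34, at 6.29 to 6.85. The Mrpl49 probe used had group means of 9.62 and 9.32. Mrps25 was likewise read inconsistently, with -0.32 and 0.30 on other dim probes that read 5.67 to 6.81. Mrps18b had -0.090 and 0.046 on its other probes. Brighter probes of opposite direction included those of Mrpl10 (-0.14, read at 10.60 to 10.88) and Mrps23 (-0.082, read at 9.78 to 10.22). Mrps18c, Mrps24 and Mrps28 had no other detected probe. The 4 genes that did not pass detection were Mrpl19, Mrpl32, Mrpl45 and Mrps14, whose 6 probes had no detection p under 0.05 on any of the 6 arrays.

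Other genes of mitochondrial translation were taken from fixed lists, and none passed over all genes (0 at an adjusted p under 0.05 in limma, with counts at an unadjusted p given by list). Further proteins of the particle had 3 of 4 measured genes higher, with 0 at an unadjusted p under 0.05. They included Gadd45gip1 (0.31, detected on 4 of 6 arrays) and Chchd1 (0.11). Among 14 measured translation factors 6 were higher and 8 lower, with a median of -0.019 and 3 at an unadjusted p under 0.05 (21.4%, against 11.3% of all genes). Guf1, the mitochondrial relative of bacterial LepA, read 7.33, 7.08 and 6.91 in the deficient group and 7.50, 7.59 and 7.89 in wild type. All deficient arrays were below the wild type ones, at -0.55 ± 0.16 (adjusted p = 0.25). Mtif3, an initiation factor, read 8.12, 8.38 and 8.66 against 7.70, 7.81 and 8.02. It lay on the other side without overlap, at 0.55 ± 0.17 (adjusted p = 0.27).

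Of 16 measured mitochondrial tRNA synthetase and amidotransferase genes 9 were higher, with a median of 0.027 and 0 at an unadjusted p under 0.05. Those of smallest p were the serine and arginine enzymes Sars2 (0.42) and Rars2 (0.30). Ribosome assembly and RNA modification factors had 9 of 21 higher, with a median of -0.014 and 1 at an unadjusted p under 0.05 (4.76%, against 11.3% of all genes). This was Grsf1, an RNA granule protein, at -0.42 ± 0.16 (adjusted p = 0.38), while the ribosomal RNA methyltransferase gene Tfb1m read 0.31. Genes for mitochondrial DNA transcription and replication had 6 of 9 higher, with 0 at an unadjusted p under 0.05. Tfam, whose product packs mitochondrial DNA and acts in its transcription, differed by -0.27 and the elongation factor gene Tefm by 0.19.

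Nuclear regulators of mitochondrial biogenesis had 2 of 8 measured genes higher, with 1 at an unadjusted p under 0.05 (12.5%, against 11.3% of all genes). This was Myc, a driver of growth genes, which read 7.18, 6.60 and 6.42 in the deficient group and 7.21, 7.14 and 7.66 in wild type. Deficient array 1 overlapped wild type, and the difference was -0.61 ± 0.23 (adjusted p = 0.38). Gabpb1, a subunit of the ETS complex named above, differed by -0.15. Proliferation genes were tallied beside the family. Of 16 measured, 15 were higher, with a median of 0.28, 0 passing over all genes and 6 at an unadjusted p under 0.05 (37.5%, against 11.3% of all genes), among them Tk1 (0.91) and Stmn1 (0.85). In the deposited table and with the trended robust prior both did pass, with an adjusted p of 0.041 and 0.020 for Tk1 and of 0.034 and 0.012 for Stmn1, which also passed without background correction (0.027). Their median deviation was 0.066, 0.112 and 0.299 on the deficient arrays and -0.447, -0.102 and -0.120 on the wild type arrays. The median of the proliferation genes was thus highest on deficient array 3 and lowest on wild type array 1. That of the small subunit was highest on deficient array 3 and lowest on wild type array 3. The part of proliferation in the small subunit's values was not tested.

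Cytosolic ribosomal protein genes and nuclear respiratory chain genes were set beside the family, without a test of the difference. Of 55 measured cytosolic ribosomal protein genes 14 were higher and 41 lower, with a median of -0.046, and 9 lay lower without overlap (16.4%, against 8.5% of all genes). Rplp0, of the cytosolic stalk, differed by 0.50 and Rps3a1 by -0.30. Of 67 nuclear subunit genes of the respiratory chain and ATP synthase 53 were higher, with a median of 0.113, and 12 lay higher without overlap (17.9%, against 8.61% of all genes). Uqcrq of complex III differed by 0.72 (adjusted p = 0.067) and Cox7a2l by -0.53 (0.22). In both families 0 genes passed over all genes, with 4 cytosolic genes (7.27%) and 6 respiratory chain genes (8.96%) at an unadjusted p under 0.05, against 11.3% of all genes. Uqcrq did pass without background correction (adjusted p = 0.0049), in the deposited table (0.016), with the stricter filter (0.037) and with the trended robust prior (0.0023). Cox7a2l passed without background correction (0.040) and with that prior (0.020). The median of the mitochondrial ribosomal protein genes lay between the medians of these families, at 0.071 over both subunits. With median scaling, under which the median of all genes was -0.076, the cytosolic median became -0.177 and the respiratory chain median 0.062. In the deposited table the cytosolic median was -0.112.

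**Figure D4:**
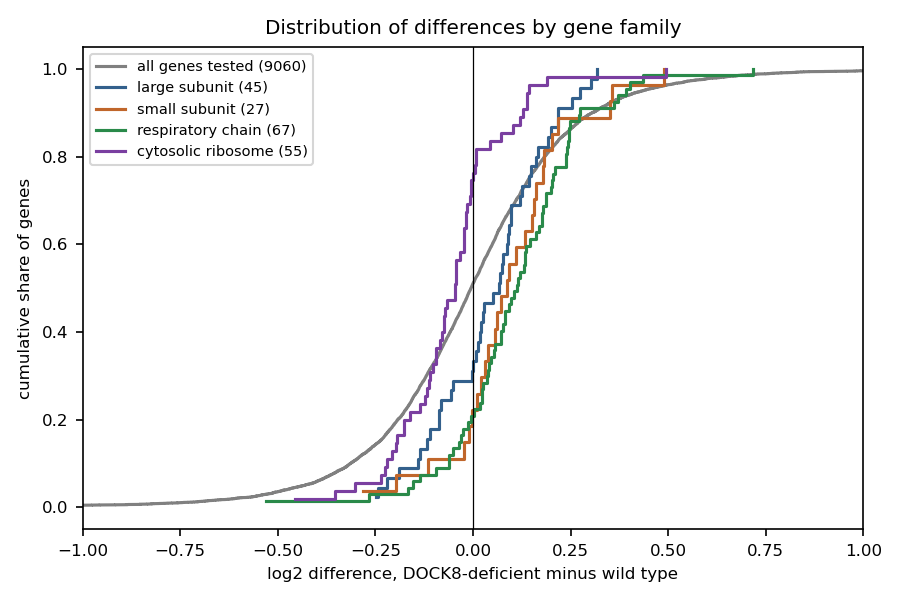
Cumulative share of genes (vertical axis) by log2 difference, DOCK8-deficient minus wild type (horizontal axis, shown from -1 to 1), for 45 large and 27 small subunit genes, 55 cytosolic ribosomal protein genes, 67 respiratory chain genes and all 9060 genes tested. The mitochondrial ribosomal curves run steeper than that of all genes and cross the middle at 0.067 and 0.087, between the cytosolic ribosomal (-0.046) and respiratory chain (0.113) curves; with median scaling the large subunit's median is -0.0024 and that of all genes -0.076.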

How the data were processed

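RNA was labelled as biotinylated cRNA, per the labels' protocols. The deposited scanner table pairs, per its file headers, a detection p-value with a linear intensity for every probe on every array; the values show no background subtraction. A second deposited table holds log2 values that rank probes as the intensities do within an array, neither centred by gene nor turned in direction; its array medians ran from 6.14 to 6.22. How the authors normalized it is not stated in the labels or headers. Intensities were background corrected and quantile normalized with neqc of limma 3.58.1 (R 4.3.3, offset 16), which inferred the negative controls from the detection p-values. Of 45281 probes, 34885 carried 1 symbol, 18 several and 10378 had no gene listed; the last 2 kinds were left out. Symbols were updated by gene ID to RefSeq (GRCm38.p6, 34807 probes matched). A probe entered with detection p under 0.05 on at least 3 of 6 arrays, and a gene took its brightest probe. Groups were compared with lmFit and eBayes (2-sided), with Benjamini-Hochberg adjustment over 9060 genes and a threshold of 0.05; errors are moderated standard errors. The code was tested on simulated data. Named genes were the 5 members of smallest p per subunit and direction, members of fixed role lists, and the 2 genes of smallest p in other fixed lists, with exceptions said so. The members and lists were chosen with earlier results of these data known. Alternatives were median scaling, omitting the background correction, use of the deposited table, no and a stricter filter, the mean of probes, a trended robust prior, a replicate block and leaving out each array.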

Additional observations from a re-analysis of the deposited data

How the results depend on the processing

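In all alternatives 0 members of either subunit passed. Over all genes 33 passed (19 higher, 14 lower), against 124 without background correction, 62 with median scaling (23 higher, 39 lower), 126 in the deposited table, 54 with the stricter filter, 165 with a trended robust prior and between 2 and 15 with 1 array left out. With replicate number as a block 0 passed, and 0 members; deviations of same-numbered arrays correlated at 0.044, -0.15 and -0.27, so the numbers are not taken as pairs. With median scaling the subunit medians moved to -0.0024 (large) and 0.021 (small); the other 7 settings kept both within the spread between arrays, and without 1 array they ran from 0.020 to 0.097 (large) and from 0.078 to 0.10 (small). Outside the left-out arrays 8 of 320 values of named members changed sign, all of members within 0.090 of 0: Mrpl24 (-0.023), Mrpl3 (-0.034), Mrps16 (-0.040) and Mrps22 (-0.067) with median scaling, Mrps22 (-0.0043) in the deposited table, Mrpl11 (0.0029) without background correction, and Mrpl10 (-0.025) and Mrps23 (-0.012) with the mean of probes. Without 1 array signs also changed, with ranges of -0.082 to 0.147 for Mrpl11, -0.023 to 0.178 for Mrpl12, -0.014 to 0.039 for Mrpl24, -0.038 to 0.118 for Mrpl3, -0.063 to 0.147 for Mrps16, -0.046 to 0.034 for Mrps21, -0.065 to 0.096 for Mrps22, -0.00048 to 0.092 for Mrps23, -0.097 to 0.284 for Mrps25, -0.064 to 0.032 for Mrps26, -0.265 to 0.014 for Gabpb1 and -0.0041 to 0.538 for Gadd45gip1. The causes were not tested.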
